A study of Mus musculus with 21 samples.

Results

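Some of the largest excesses in the PreMegE fraction, the bipotent megakaryocyte and erythroid progenitor of mouse bone marrow, belonged to genes better known from other tissues. They are Rec114, Csrp3, Zg16, Cavin2 and Fbxl13, 5 of the 18217 genes that had a named probe on the array. They were selected on these measurements, for some of the largest excesses of PreMegE over KLS or PreGM. KLS are multipotent progenitors, and PreGM is the myeloid counterpart of PreMegE. The ranking below also required signal well above background on all arrays compared. The differences that selected the 5 genes are given as a description without a test. For these 5 genes, tests are given only for comparisons among the other 4 fractions, whose levels were not compared in the choice. These tests are not fully separate from it. The spread of each probe was fitted over all 21 arrays, for the ranking and the tests alike. The brightest probe of a gene was also picked by its mean over all 21 arrays, which matters for Rec114, with its 2 probes.

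From C57BL/6 mice, 7 fractions of bone marrow cells were sorted, and each was measured on 3 arrays of 1 colour, 21 arrays in all. KLS cells are lineage-negative and positive for Kit and Sca1. On the erythroid side they are followed by PreMegE (CD150+, CD105-, Fc gamma receptor-negative), CFUe (labelled CD150-, CD105-, Fc gamma receptor-negative) and Ter119 (CD71+ Ter119+). On the myeloid side they are followed by PreGM, whose labelled markers are the same as those of CFUe, then GMP (CD150-, Fc gamma receptor-positive) and Mac1Gr1 (Mac1+ Gr1+). The labels write Sca1 as positive in all 5 Kit-positive fractions, but the level of Ly6a, the gene of Sca1, differed widely among them. It lay at 2.57 ± 0.17 in KLS and 2.10 ± 0.03 in GMP (log2 level, mean ± SD, n = 3). It was -0.31 ± 0.10 in PreGM, -3.14 ± 0.22 in PreMegE and -5.81 ± 1.21 in CFUe. Slamf1, the gene of CD150, was at 0.32 ± 0.10 in PreMegE against -3.00 ± 0.24 in KLS. Eng, the gene of CD105, was at 2.15 ± 0.09 in PreMegE and 2.47 ± 0.12 in CFUe, both labelled CD105-. Itga2b, the gene of CD41, was at 2.84 ± 0.28 in PreMegE and -0.13 ± 0.17 in KLS. These are transcript levels, and surface protein was not measured on the arrays. The lineage cocktail held B220, CD3, CD4, CD8, CD41, Mac1, Gr1 and Ter119, and no age or sex of the mice was given. Nothing in the labels ties the 3 arrays of a fraction to separate animals or pools, so p-values measure the spread between these samples only. In sorted populations, more cells that carry a transcript and more transcript per cell cannot be told apart.

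The products of these genes do unrelated work. REC114 binds MEI4 and IHO1 in the assembly on meiotic chromosomes that lets SPO11 break DNA. CSRP3, the muscle LIM protein, sits at the Z-disc of striated muscle and is known from inherited cardiomyopathy. ZG16 is a lectin of the zymogen granules of the pancreas and of the mucus of intestinal goblet cells. CAVIN2 (formerly SDPR, serum deprivation response) binds phosphatidylserine and coats caveolae, and it is present in platelets. FBXL13 has an F-box and leucine-rich repeats, the build of the substrate adaptors of SCF ubiquitin ligases. PreMegE cells give rise to both megakaryocytes and erythroid cells and express GATA1 and GATA2, which bind sequences with a GATA core.

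Each gene was chosen for its own excess in PreMegE, a GATA-rich fraction. The bases before the start sites of these genes were therefore read from RefSeq (GRCm38.p6) and searched on both strands for a GATA string. This means AGATAA or the string TGATAA, or the same ending in G, that is AGATAG or the string TGATAG. Windows of 250 bases were at hand for 4 of the 5 genes, 5 windows in all. Matches lay in 2 of these 5 windows, beside 26.5% of 32851 windows of the same length over all genes. Below are the Rec114 window (chr9:58741560-58741809, minus strand), the Csrp3 window that holds matches (chr7:48843672-48843921, minus strand) and, as the window of the gene with the largest excess over PreGM, that of Cavin2 (chr1:51288876-51289125, plus strand), each 5′ to 3′ along its gene with GATA matches in capitals.
Rec114: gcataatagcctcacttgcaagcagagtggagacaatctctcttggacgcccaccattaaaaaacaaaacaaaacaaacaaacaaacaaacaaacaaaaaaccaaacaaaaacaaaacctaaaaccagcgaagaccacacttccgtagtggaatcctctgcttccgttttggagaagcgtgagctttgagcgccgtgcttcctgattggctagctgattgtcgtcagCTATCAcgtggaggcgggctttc
Csrp3: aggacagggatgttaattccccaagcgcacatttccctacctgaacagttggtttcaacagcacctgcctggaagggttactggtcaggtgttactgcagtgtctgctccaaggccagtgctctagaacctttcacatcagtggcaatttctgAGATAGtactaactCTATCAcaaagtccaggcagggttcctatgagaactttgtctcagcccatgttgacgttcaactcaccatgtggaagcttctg
Cavin2: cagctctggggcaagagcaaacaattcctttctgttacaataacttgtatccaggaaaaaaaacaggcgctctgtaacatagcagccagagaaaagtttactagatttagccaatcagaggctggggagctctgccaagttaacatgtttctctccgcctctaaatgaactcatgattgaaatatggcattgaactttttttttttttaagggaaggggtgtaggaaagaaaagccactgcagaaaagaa
The Rec114 window holds 1 match, on the opposite strand, whose first base is at position -23 from the start site. The Csrp3 window holds 2, at positions -97 and -83, on opposite strands. None of these letters was found in the Cavin2 window, the Fbxl13 window or the other Csrp3 window. A further search for CCAAT found it in the Rec114 and Cavin2 windows (33.8% of all windows hold it). GGAAGTG, a core bound by ETS factors, was in the Rec114 window (8.55% of all), and neither CCACACCC (3.2%) nor TATAAA (12.4%) was in any of the 5 windows. A match is a string of letters, not a bound site, and the probes measure transcript, not promoter use.

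Levels are log2 of the background-corrected signal less the 75th percentile of its array, so a level of 0 equals that percentile, and levels are compared between fractions for 1 probe at a time. A probe was called between fractions when it differed 2-fold or more with a limma adjusted p under 0.05. To place the choice, genes were ranked that were called higher in PreMegE, well above background on all 6 arrays and without overlap of the arrays. Over KLS, 455 genes met this, led by Rec114 with a log2 difference of 5.97 (62.6-fold), Csrp3 with 5.66 (50.7-fold) and Zg16 with 5.56 (47.3-fold). The next genes, just outside the choice, were Scin (5.44), Ccl17 (5.18) and Il1rl1 (4.89), and Cavin2 came at rank 18 with 4.39. Over PreGM, 639 genes met it, led by Cavin2 with 6.58 (95.7-fold) and Fbxl13 with 5.13 (35.1-fold), and followed by Hspb1 (5.01), Col5a1 (4.97) and Pdzph1 (4.94). Zg16 ranked 16 there with 4.33, Rec114 ranked 39 with 3.70 and Csrp3 ranked 239 with 1.76, so Csrp3 owes its place to KLS alone. Fbxl13 exceeded KLS by 7.78 but was well above background on 1 of the 3 KLS arrays and was not ranked against that fraction. In PreMegE against KLS, 3.55% of the 29532 probes tested were called higher and 8.86% lower, and against PreGM 5.81% were called higher and 6.23% lower. The median log2 difference was 5.66 over the 5 genes and 0.13 over all probes against KLS, and 4.33 and 0.03 against PreGM. These numbers follow from the choice.

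**Figure D1:**
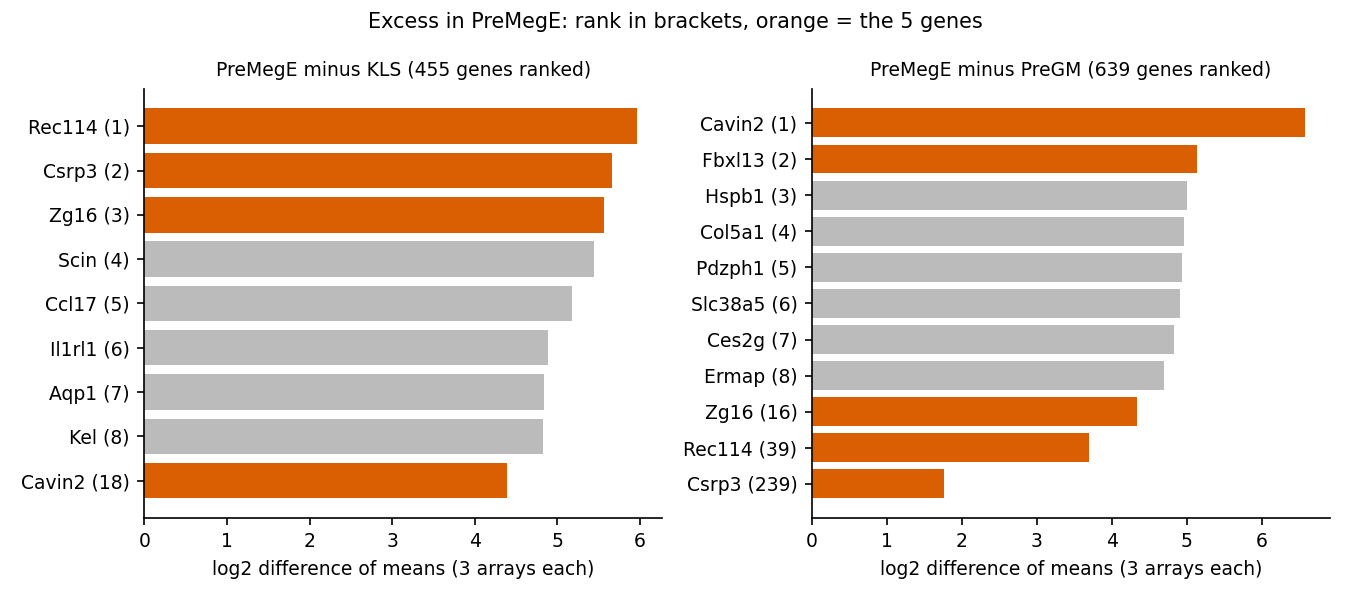
Bars give the log2 difference of the mean of 3 PreMegE arrays from the mean of 3 KLS arrays (left) or 3 PreGM arrays (right), with each gene's rank in brackets and the 5 genes described here in orange. Rec114, Csrp3 and Zg16 head the left panel at 5.97, 5.66 and 5.56, Cavin2 and Fbxl13 head the right panel at 6.58 and 5.13, and the grey bars are the next genes in each ranking.

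Rec114 was high in the erythroid fractions and low in the myeloid ones, and PreMegE was not its peak. Its levels were -3.95, -3.72 and -2.68 on the KLS arrays and 2.67, 2.56 and 2.33 on the PreMegE arrays. They were 1.98, 2.27 and 2.76 in CFUe and 6.06, 6.37 and 6.24 in Ter119. On the myeloid side they were -1.40, -1.18 and -0.95 in PreGM, -5.65, -5.79 and -4.20 in GMP and -3.99, -4.34 and -4.15 in Mac1Gr1. PreMegE and CFUe overlapped, all Ter119 arrays lay above them, and GMP was well above background on 1 of 3 arrays. These values come from the brighter of the 2 Rec114 probes, and the other probe, with the same RefSeq accession, did not show this course. The dimmer probe was well above background on 3 of 21 arrays, 1 each of KLS, CFUe and GMP, and read -6.01, -5.96 and -5.97 in PreMegE and -5.96, -6.53 and -6.79 in Ter119. Which part of the transcript each probe covers was not analysed here, so every Rec114 value below is that of 1 probe that the second does not share.

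**Figure D2:**
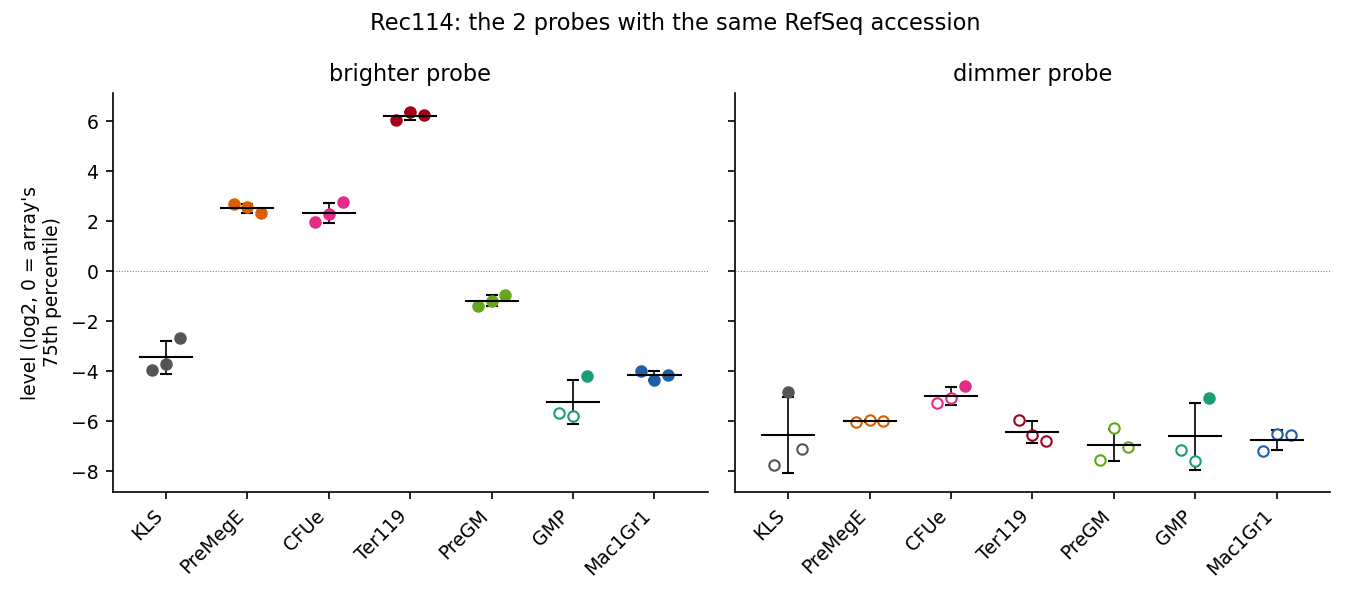
The vertical axes give the log2 level of the 2 Rec114 probes (0 is the 75th percentile of the array) on the 21 arrays by fraction, filled where the probe was well above background, with the mean and SD of 3 arrays. The brighter probe reached 6.22 ± 0.16 in Ter119, where the dimmer probe was at -6.43 ± 0.42 and not well above background on any array.

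Csrp3 was highest in PreMegE with overlapping arrays in CFUe and GMP. It was well above background on all 21 arrays. Its levels were -4.90, -4.20 and -3.32 in KLS and 1.39, 1.65 and 1.52 in PreMegE. They were -1.40, -1.37 and 0.04 in CFUe and -2.22, -2.30 and -1.91 in Ter119. In the myeloid fractions they were -0.52, -0.62 and 0.43 in PreGM, -1.30, -1.26 and -1.43 in GMP and -3.94, -4.08 and -3.60 in Mac1Gr1. Every PreMegE array exceeded every other array, and PreGM was second, overlapping with CFUe. The third arrays of CFUe and PreGM lay above the other two of their fractions, and both were the arrays of their fraction with low Xist and high Y-linked transcripts.

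Zg16 was high in PreMegE and CFUe and low everywhere else. Its levels were -3.42, -3.14 and -1.79 in KLS, 2.61, 2.94 and 2.78 in PreMegE and 2.13, 2.09 and 2.71 in CFUe. They were -2.17, -2.46 and -2.58 in Ter119, -1.60, -1.74 and -1.32 in PreGM, -3.62, -3.89 and -4.02 in GMP and -3.69, -3.01 and -2.54 in Mac1Gr1. The PreMegE and CFUe arrays overlapped with each other and lay at least 3 log2 units above all others. Zg16 was well above background on all 21 arrays.

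Cavin2 was high in PreMegE alone, with KLS next. Its levels were 2.99, 3.40 and 3.14 in PreMegE and -1.84, -1.14 and -0.67 in KLS. The other 5 fractions lay between -5.64, on a CFUe array, and -3.16, on a PreGM array, and neighbours among them overlapped. CFUe and Ter119 were well above background on 1 of 3 arrays each. The step from PreMegE to CFUe was thus -8.30 on the log2 scale, with the lower value near background.

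Fbxl13 was also highest in PreMegE, with CFUe next and the late myeloid fractions not well above background. Its levels were 1.36, 1.53 and 1.44 in PreMegE, -2.56, -2.44 and -1.79 in CFUe and -3.89, -3.67 and -3.51 in PreGM. They were -7.03, -7.45 and -4.53 in KLS and -5.24, -4.33 and -3.56 in Ter119, where 1 of 3 arrays was well above background in each. GMP (-7.35 ± 0.22) and Mac1Gr1 (-6.38 ± 0.38) were not well above background on any array.

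**Figure D3:**
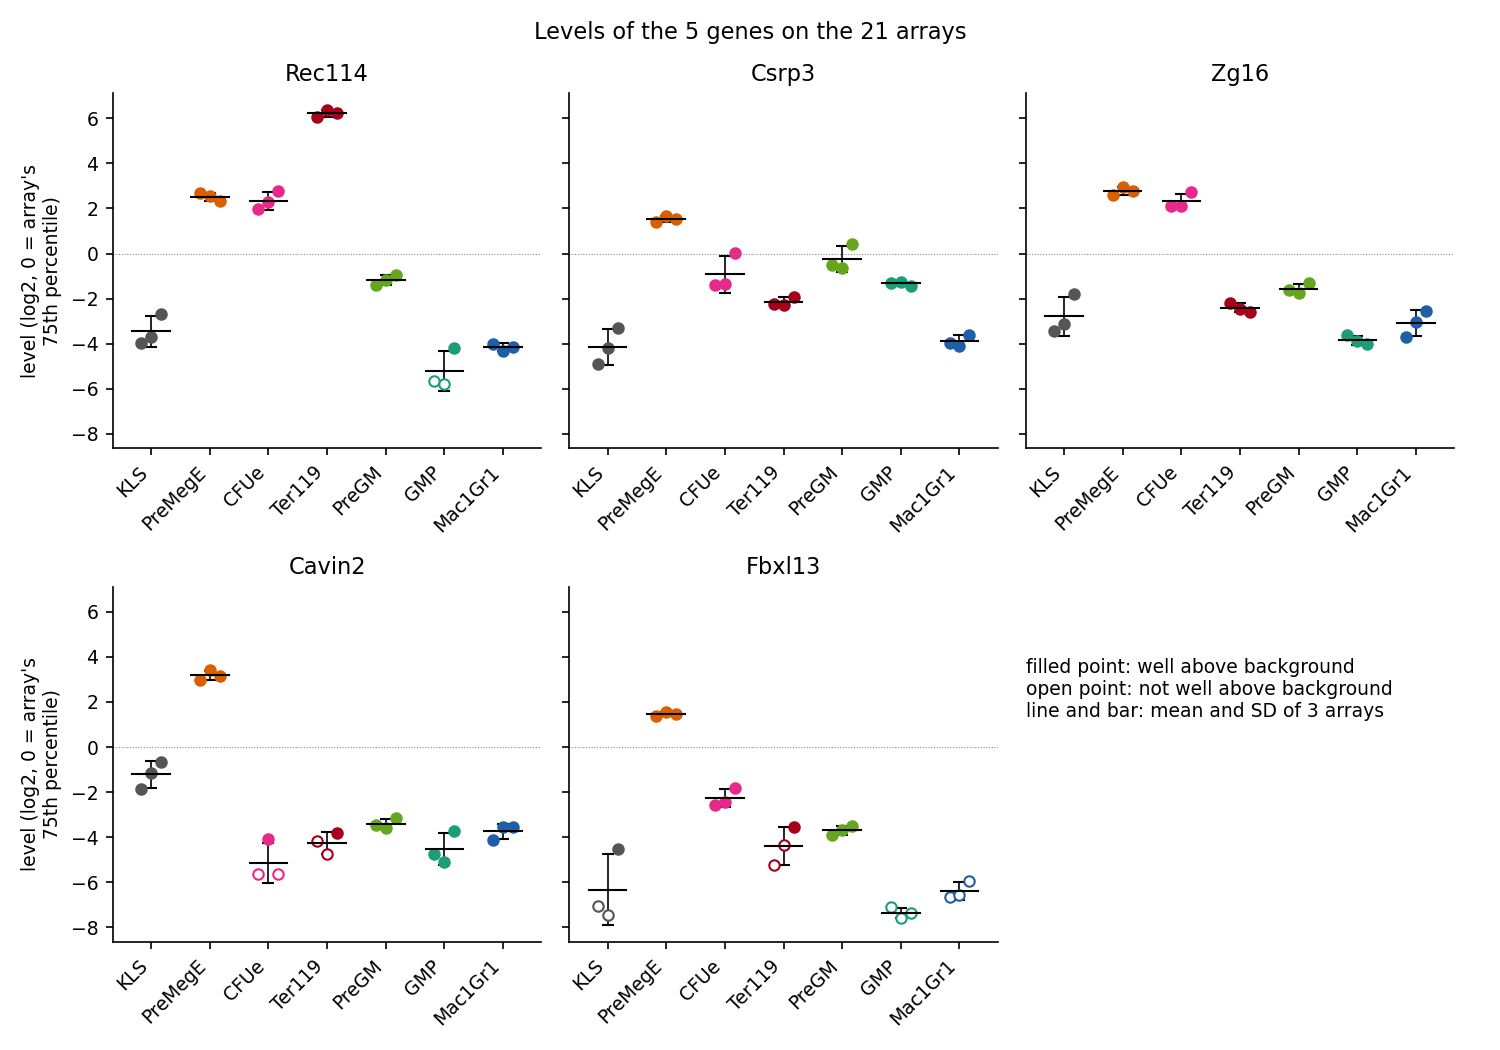
Each panel gives the log2 level of 1 gene (vertical axis, 0 is the 75th percentile of the array) on the 3 arrays of each fraction, filled where well above background and open where not, with the mean and SD as a line and bar. The PreMegE arrays are the highest for Csrp3, Cavin2 and Fbxl13, overlap with CFUe for Zg16, and lie below Ter119 for Rec114.

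The order of the fractions therefore separated the genes. From the highest mean, Rec114 ran Ter119, PreMegE and CFUe (overlapping), PreGM, KLS, then Mac1Gr1 and GMP (overlapping). Csrp3 ran PreMegE, then PreGM, CFUe and GMP, each overlapping with the next, then Ter119, then Mac1Gr1 and KLS (overlapping). Zg16 ran PreMegE and CFUe (overlapping), PreGM, and then Ter119, KLS, Mac1Gr1 and GMP, each overlapping with the next. Cavin2 ran PreMegE, KLS, and then 5 fractions that overlapped with their neighbours. Fbxl13 ran PreMegE, CFUe, then PreGM, Ter119, KLS and Mac1Gr1 in overlapping steps, and GMP last, the final pair not well above background. PreMegE held the highest mean for 4 of the 5 genes, as it did for 8.51% of the probes tested. This count follows in large part from the choice and is no test. KLS replicate 3 was the highest KLS array for all 5 genes. Without it, the excess of Zg16 over KLS was 6.06 and that of Fbxl13 8.68.

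Pearson's r between the 5 genes over the 21 arrays was highest for Zg16 and Fbxl13 (0.92) and lowest for Rec114 and Cavin2 (0.13); the arrays fall into 7 fractions, so these values mostly describe fraction means. The genes with the most similar course, among 14128 other genes, differed between the 5. Rec114 was most like Kel (r = 0.974), which carries the Kell blood group, then Tspo2, Lpin2, Ache and Tspan33, all highest in Ter119. Csrp3 was most like Scin (0.921), an actin-severing protein, then Slc24a3, St8sia6, Slc45a3 and Il31ra, of which only Il31ra peaked outside PreMegE, in CFUe. Zg16 was most like Car1 (0.958), a carbonic anhydrase of red cells, then Asph, Ccdc68, Mapk9 and Prss50, all highest in CFUe. Cavin2 was most like Gucy1b1 (0.95), a subunit of the nitric oxide receptor guanylate cyclase, then Col18a1, Tnfsf4, Hspb1 and H1f0, all highest in PreMegE. Fbxl13 was most like Itga4 (0.946), then Parm1, Zg16, Pkd1l3 and Ptpn14, all highest in PreMegE. Some of these genes were themselves in the rankings above, and no likeness was tested.

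In the fractions whose levels were not compared in the choice, the genes divided. CFUe exceeded GMP for 3 of the 5 genes, where 12.1% of all probes tested were called higher in CFUe and 14.2% lower. Rec114 was higher in CFUe by 7.55 ± 0.36 (log2 difference ± SE, adjusted p = 1.67e-11), with the GMP mean resting on 1 array well above background. Zg16 was higher by 6.15 ± 0.34 (adjusted p = 1.23e-10). Fbxl13, at -2.26 ± 0.41 in CFUe and not well above background in GMP, was at least 8.89-fold higher (adjusted p = 5.63e-07), where the bound sets the CFUe mean against, per GMP array, the higher of the gene's own signal and the lowest signal well above background. Csrp3 differed by 0.42 ± 0.39 (adjusted p = 0.385) and Cavin2 by -0.61 ± 0.42 (adjusted p = 0.239), and neither passed the test. Cavin2 was called lower without CFUe replicate 2 (-1.12, adjusted p = 0.0261) and relative to the spike-in RNAs (-1.98). In this comparison the median was 5.09 over the 5 genes and 0.22 over all probes. CFUe and GMP shared no slide, so within these 6 arrays slide and fraction cannot be told apart. All GMP arrays and 2 of the 3 CFUe arrays had high Xist. Between those arrays alone, CFUe differed from GMP by 7.34 for Rec114, 5.95 for Zg16 and -0.06 for Csrp3.

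Between the most mature fractions, 3 of the 5 genes were called higher in Ter119 than in Mac1Gr1 and none lower, beside 22% of all probes higher and 19.9% lower. Rec114 exceeded Mac1Gr1 by 10.38 ± 0.36 (adjusted p = 4.09e-13), a 1333-fold difference in signal. Csrp3 was higher by 1.73 ± 0.39 (adjusted p = 8.44e-04). Fbxl13 passed the test (adjusted p = 0.00398) with means of -4.38 in Ter119 and -6.38 in Mac1Gr1, but it was well above background on 1 of the 6 arrays, so no fold is given. Zg16 (0.68 ± 0.34, adjusted p = 0.091) and Cavin2 (-0.51 ± 0.42, adjusted p = 0.295) did not pass, though Cavin2 was called lower in Ter119 relative to the spike-in RNAs (-1.24, adjusted p = 0.0184) and in the authors' normalized values (-1.02, adjusted p = 0.0257). Relative to the spike-in RNAs the median of all probes was -0.67. All Ter119 arrays had low Xist and high Y-linked transcripts and all Mac1Gr1 arrays the reverse, and the 2 fractions shared no slide, so within these 6 arrays fraction, sex-chromosome transcripts and slide cannot be told apart. With the sex transcripts as a covariate in the fit across all fractions, Csrp3 was at 0.67 (adjusted p = 0.169) and Fbxl13 at 1.70 (adjusted p = 0.076), and with the slide as a block at 1.77 (adjusted p = 0.0545) and 1.59 (adjusted p = 0.143), which left only Rec114 called. A normexp background correction also left Csrp3 (0.97) and Fbxl13 (0.70) under 2-fold. Transcripts of other cell types were also present in Ter119. All 12 granulocytic genes that had a probe were well above background there, and their summed signal was 4723 to 5939 times the 75th percentile, against 5455 to 6106 in Mac1Gr1 and 5.39 to 41.4 in CFUe. The summed signal of 8 B cell genes was 149.9 to 207 in Ter119, 32 to 54.3 in Mac1Gr1 and 1.30 to 3.72 in CFUe, and that of 9 mast cell and basophil genes was 72.9 to 85.6, 184 to 210.4 and 4.73 to 6.23. The 7 macrophage genes summed to 8.30 to 8.86, 15.6 to 18.1 and 0.25 to 0.37 in the same order, and the 5 T cell genes to 6.57 to 7.40 in Ter119 and 6.24 to 7.93 in Mac1Gr1. Against CFUe, all 12 granulocytic, 8 B cell, 5 T cell and 7 macrophage genes and 8 of the 9 mast cell and basophil genes were called higher in Ter119, and against Mac1Gr1 all 8 B cell genes were. The part of these transcripts in the levels of the 5 genes in Ter119, here and in the step from CFUe, was not tested.

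From CFUe to Ter119, Rec114 rose and 3 of the other genes fell. Over all probes, 29.2% were called higher in Ter119 and 28% lower, so a call in this step is common. Rec114 rose by 3.89 ± 0.36 (adjusted p = 2.89e-08). Zg16 fell by 4.71 (SE 0.34, adjusted p = 1.24e-09), Fbxl13, well above background on 1 of 3 Ter119 arrays, fell by 2.12 (SE 0.55, adjusted p = 0.00211) and Csrp3 fell by 1.23 (SE 0.39, adjusted p = 0.00849). The call of Csrp3 rested on CFUe replicate 3, without which the difference was -0.75 (adjusted p = 0.0656). That was the 1 CFUe array with low Xist, while all 3 Ter119 arrays had low Xist. Against that array alone, Ter119 differed by -2.18 for Csrp3. The part of sex-chromosome transcripts in this step cannot be told apart from that of the single array. Cavin2, near background on both sides, differed by 0.88 ± 0.42 (adjusted p = 0.067), and it was called higher without CFUe replicate 2 (1.39, adjusted p = 0.00406) or Ter119 replicate 2 (1.13, adjusted p = 0.0372). With normexp, Csrp3 (-0.57) and Fbxl13 (-0.15) were not called. On the slide that carried an array of each fraction, Ter119 replicate 3 and CFUe replicate 1 differed by 4.26 for Rec114, -4.70 for Zg16 and -0.50 for Csrp3, with Fbxl13 lower on the Ter119 array there too.

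From GMP to Mac1Gr1, Csrp3 fell and Rec114 was called higher with overlapping arrays. Csrp3 fell by 2.55 (SE 0.39, adjusted p = 1.33e-05), one of 2 calls among the 5 genes where 29.1% of all probes were called higher in Mac1Gr1 and 27.6% lower. Rec114 was called higher by 1.05 ± 0.36 (adjusted p = 0.0138), although the arrays overlapped and 2 of 3 GMP arrays were not well above background. The call was lost without GMP replicate 1 (0.84), without GMP replicate 2 (0.77) or without Mac1Gr1 replicate 1 (0.97). It was also lost with a slide block (1.46, adjusted p = 0.0581), with quantile scaling (0.82) and in the authors' normalized values (0.85). Zg16 (0.76 ± 0.34, adjusted p = 0.0533) and Cavin2 (0.79 ± 0.42, adjusted p = 0.1) did not pass, though Zg16 was called without Mac1Gr1 replicate 1 (1.07) and with a slide block (1.35, adjusted p = 0.0235), and Cavin2 without GMP replicate 3 (1.19). Fbxl13 was not well above background on any array of either fraction. GMP and Mac1Gr1 shared no slide, so within their arrays slide and fraction cannot be told apart. Relative to the spike-in RNAs, the median of all probes was lower in Mac1Gr1 than in GMP by 1.86 on the log2 scale, and on that scale Rec114 (-0.98), Zg16 (-1.27) and Cavin2 (-1.25) were lower, too.

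**Figure D4:**
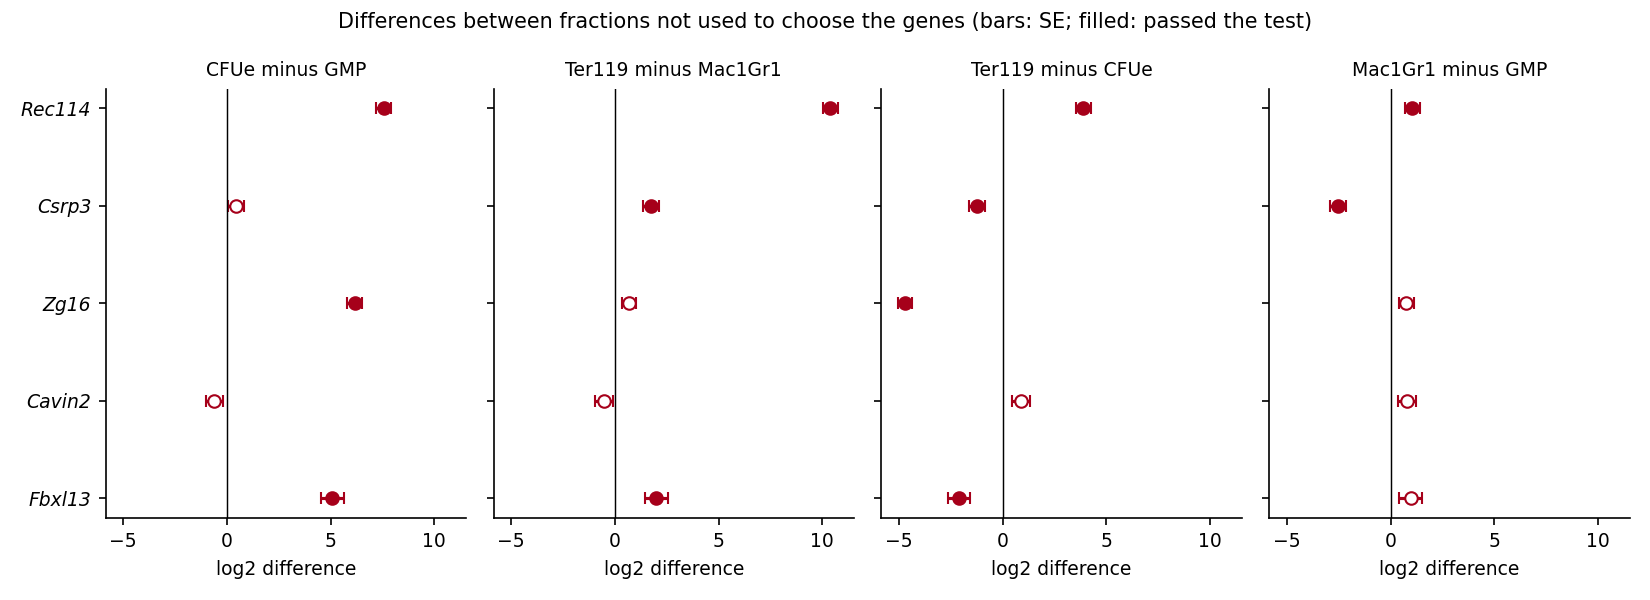
Points give the log2 difference between 2 fractions (horizontal axis) for each of the 5 genes, with the SE from limma as bars, 3 arrays per fraction, filled where the gene passed the test. Rec114 and Zg16 lie at 7.55 and 6.15 in the first panel, Rec114 at 10.38 in the second, and Rec114 and Zg16 to opposite sides of 0 in the third.

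The last step of the erythroid side (CFUe to Ter119) was then set against that of the myeloid side (GMP to Mac1Gr1) in 1 contrast. Of the 5 genes, 3 passed the test, 1 higher and 2 lower on the erythroid side, beside 20.9% of all probes higher and 19% lower. Rec114 rose by 2.83 ± 0.51 more on the erythroid side (adjusted p = 1.61e-04), a call lost with a slide block (2.15, adjusted p = 0.0844). Zg16 moved by -5.47 ± 0.48 relative to the myeloid side (adjusted p = 7.36e-08). Fbxl13 passed at -3.09 ± 0.77 (adjusted p = 0.00275), but no GMP or Mac1Gr1 array had it well above background, so its myeloid step was not measured and no difference between the sides is read from it. Csrp3 (1.32 ± 0.55, adjusted p = 0.0515) and Cavin2 (0.09 ± 0.59, adjusted p = 0.909) did not pass, though Csrp3 was called without CFUe replicate 3 (1.79) or Mac1Gr1 replicate 3 (1.46), with the replicate number as a block (1.32, adjusted p = 0.0154), with the 4 fractions fitted alone (1.32, adjusted p = 0.0364) and relative to the spike-in RNAs (1.97).

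The partner lists held partners of Rec114, Csrp3 and Cavin2, genes of the tissue settings of Zg16, and the family of Fbxl13 with the ligase core. At most 2 genes per list were called higher in PreMegE than in KLS or PreGM, where 3.55% and 5.81% of all probes were. Nothing particular to these lists is therefore read from the counts. Of 20 genes of meiotic double-strand break formation, 14 had a probe and 8 were tested, and in PreMegE none was called higher and 1 lower against both KLS and PreGM. That gene was Mei4, the partner of REC114, not well above background in PreMegE and at -4.73 in KLS. Of 20 genes of the Z-disc and sarcomere, 14 were tested, with none higher and 2 lower against either fraction, among them Csrp2 (0.59 in PreMegE, 2.25 in KLS and 2.44 in PreGM), a close relative of Csrp3. Of the 20, 9 were well above background on all PreMegE arrays, among them the sarcomere genes Actc1 (-0.49), Mybpc3 (-1.14), Tnni3 (-1.80) and Myl3 (-2.63), and 6 on none, among them Actn2, Des, Myh6 and Tnnt2. Of 14 pancreatic zymogen genes, 9 were tested, and 1 was called higher against either fraction. It was Cela1, an elastase, which exceeded PreGM by 2.90 (adjusted p = 4.85e-09) and KLS by 2.19. Of the 13 with a probe, 7 were well above background on all PreMegE arrays, among them Ctrb1 (1.24), Cel (-1.76), Ctrl (-1.88) and Sycn (-2.59), and 4 on none, namely Gp2, Cpa1, Cela2a and Amy2a5. Of 8 goblet cell genes, 4 were tested and none was called.

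Of 10 caveolar genes, 9 were tested. Against PreGM, Cavin3 was higher in PreMegE by 1.57 ± 0.28 (adjusted p = 4.45e-04) and Cavin1, the core of the coat, by 1.23 ± 0.19 (adjusted p = 9.76e-05), while Cav2 was lower (-1.24 ± 0.25, adjusted p = 0.00109). Against KLS none was higher and Cav2 was lower (-2.49). Cav1, the main structural protein of caveolae, was at -5.56 in PreMegE, well above background on 2 of 3 arrays, and Cav3 on none. Of 21 FBXL adaptors and SCF core genes, 17 were tested. Fbxl2 was called higher against KLS (1.22 ± 0.38, adjusted p = 0.0238) and none against PreGM. The median log2 difference of these 6 lists in PreMegE lay between -0.68 and 0.34 against KLS and between -0.35 and 0.07 against PreGM, beside 0.13 and 0.03 over all probes. In Ter119, where Rec114 peaked, the counts were larger, as they were over all probes. Against CFUe, 5 of the 8 meiotic genes were higher and 1 lower, as were 6 and 1 of the 14 muscle genes, 5 and 1 of the 9 zymogen genes, 2 and 0 of the 4 goblet cell genes, 4 and 2 of the 9 caveolar genes and 4 and 8 of the 17 FBXL and SCF genes, beside 29.2% and 28% of all probes. In the difference between the last steps, 4 of the 8 meiotic genes were higher and 1 lower, and of the 14 muscle genes 6 and 3. The counts were 4 and 2 of the 9 zymogen genes, 1 and 0 of the 4 goblet cell genes and 4 and 1 of the 9 caveolar genes. Of the 17 FBXL and SCF genes, 0 were higher and 6 lower, beside 20.9% and 19% of all probes. Nothing particular to the meiotic list is read from these counts. Of its 14 genes with a probe, 7 were well above background on no Ter119 array.

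Markers of the megakaryocyte and erythroid lineages were mostly higher in PreMegE than in KLS and PreGM. Of 14 megakaryocyte and platelet genes tested, 10 were called higher and 3 lower in PreMegE than in KLS, and 11 higher and 1 lower than in PreGM. Against PreGM, Pf4 (platelet factor 4) was higher by 4.68 ± 0.31, Gp5 by 4.49 ± 0.53 and Rab27b by 3.96 ± 0.46. The summed signal of the list was 60.7 to 72.6 times the 75th percentile in PreMegE, 20.5 to 23.9 in KLS, 10.3 to 11.7 in PreGM and 5.44 to 7.65 in CFUe. Gp6 was not well above background in PreMegE. Of 9 erythroid genes tested, 5 were called higher than in KLS and 7 higher than in PreGM, none lower, with Ermap (4.70), Epor (4.11) and Klf1 (4.09) the furthest above PreGM. Their summed signal was 49 to 56.7 in PreMegE, 140 to 160 in CFUe and 3458 to 4407 in Ter119. Among the factors, Gata1 was at 2.48 ± 0.03 in PreMegE, 3.13 ± 0.10 in CFUe and 0.80 ± 0.43 in Ter119, and Gata2 was at 5.20 ± 0.23, 2.24 ± 0.17 and 0.10 ± 0.36. Klf1 was at 2.21 ± 0.13, 3.91 ± 0.16 and 2.40 ± 0.44, and Spi1, which encodes PU.1, was at -2.19 ± 0.15 in PreMegE and 0.48 ± 0.58 in PreGM. Csrp3, Cavin2 and Fbxl13 shared with Gata2 a maximum in PreMegE and a lower level in CFUe, but Cavin2 was near background in CFUe and Gata2 was not. By its brighter probe, Rec114 was highest in Ter119, where Gata1 and Gata2 were lower than in CFUe.

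Markers of other cells were also set beside the fractions that chose the genes. All 7 macrophage genes tested were called lower in PreMegE than in KLS, with a median of -6.31, and their summed signal was 19.2 to 54.2 in KLS and 0.35 to 0.75 in PreMegE. Of 12 granulocytic genes tested, none was called higher and 1 lower than in KLS, and 4 were lower than in PreGM. Of 9 mast cell and basophil genes, 3 were called higher and 2 lower than in KLS, and Gata2 alone was higher than in PreGM. Their part in the levels of the 5 genes was not tested. No B or T cell gene was called higher in PreMegE. KLS and PreMegE arrays all had low Xist, and PreGM held 1 such array. Against that array alone, the 3 PreMegE arrays exceeded PreGM by 6.34 for Cavin2, 4.95 for Fbxl13, 4.10 for Zg16, 3.47 for Rec114 and 1.09 for Csrp3. On the 2 slides that carried an array of each fraction, PreMegE exceeded PreGM by 6.85 and 6.30 for Cavin2, 5.42 and 4.95 for Fbxl13, 4.54 and 4.10 for Zg16, 3.96 and 3.28 for Rec114, and 2.18 and 1.09 for Csrp3. PreMegE and KLS shared no slide, so there slide and fraction cannot be told apart.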

How the data were processed

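The 5 genes and the gene lists were chosen with earlier results of these data known. The authors extracted RNA with TRIzol, amplified and labelled it with Cy3, and hybridised each sample alone to an Agilent whole mouse genome array. The deposited scanner files hold linear intensity from Agilent Feature Extraction 10.7.1.1. The deposited series table holds log2 values normalized between arrays by the authors, whose methods name LIMMA and SAM without settings (medians 6.15 to 6.23, rank correlation with the scanner values at least 0.9998), and served as an alternative.

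Here, gProcessedSignal was log2-transformed and scaled to the 75th percentile of each array over 43379 spots. Outlier spots (80 to 283 per array) were dropped, none was saturated, and spots of a probe were averaged to 41174 probes, of which 64.8% took a symbol through RefSeq accessions (GRCm38.p6, names only, since the array annotation names mm9). Between 56.4% and 77.4% of probes per array were well above background. The brightest probe stood for a gene. All 5 genes were among the 29532 probes tested, for which some fraction had to be well above background on each of its 3 arrays, and each met this through PreMegE. limma 3.58.1 in R 4.3.3 was fitted to all 21 arrays with 1 mean per fraction (lmFit and eBayes, two-sided, 14 residual degrees of freedom, median residual SD 0.262), with Benjamini-Hochberg adjustment over all probes tested. The number of arrays limits the precision. On simulated data for CFUe against GMP, 177 of 200 probes changed by 2 on the log2 scale were recovered, with 2 false calls. The simulation drew independent normal noise around 1 mean per probe, without slide or sex-transcript differences. Only 200 of 29532 probes changed in it, whereas 12.1% were called higher and 14.2% lower in the data. Its rates therefore need not carry over to these arrays.

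The genes named beside the 5 are Gata1, Gata2, Klf1 and Spi1, the 5 genes most like each of them, the next 3 genes of each ranking, and from each list at most 4 called genes with the largest difference between PreMegE and PreGM. Named in addition, after their values were seen, are a few genes of the partner lists, genes of these lists that were or were not well above background, and the genes of the sorting antigens. Some results of the partner lists are not reported here. Figures were drawn with matplotlib 3.10.9. Alternatives were quantile scaling, spike-in scaling (7 of 10 sequences), normexp with an offset of 50, no dim filter, the replicate number or the slide as a block, values of the series table, the 4 fractions alone, no minimum fold change, the second brightest probe, a sex-transcript covariate and leaving out each array.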

Additional observations from a re-analysis of the deposited data

Results flagged for a closer look

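The difference between the last step of maturation on the erythroid and on the myeloid side passed its test for 3 of the 5 genes. For Rec114 the change from CFUe to Ter119 (3.89) exceeded that from GMP to Mac1Gr1 (1.05) by 2.83 on the log2 scale (limma adjusted p = 1.61e-04, from 1.82e-07 to 0.321 over its alternatives). For Zg16 the changes were -4.71 and 0.76, a difference of -5.47 (limma adjusted p = 7.36e-08, from 1.21e-10 to 1.83e-04 over its alternatives). For Fbxl13 they were -2.12 and 0.97, a difference of -3.09 (limma adjusted p = 0.00275, from 1.05e-04 to 0.0314 over its alternatives), but the gene was not well above background on any GMP or Mac1Gr1 array, so no difference between the sides is read from it.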

How the results depend on the processing

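Over all alternatives, 589 values of the 5 genes kept their side of the threshold or, where untested, moved by less than the spread. These include differences that changed sign without a call on either side, as for Csrp3 in CFUe against GMP (-0.96 to 0.88). A further 18 lost the call, 15 gained it and 6 changed sign with a call on at least one side. In addition, 27 untested differences moved by more than the spread. Calls for Ter119 against Mac1Gr1 dropped from 3 to 1 with normexp background correction, with the slide as a block and with the sex-transcript covariate. Those for Ter119 against CFUe dropped from 4 to 2 with normexp. Those for Mac1Gr1 against GMP dropped from 2 to 1 with quantile scaling, the series table and the second brightest probe, and ranged from 1 to 3 when each array was left out in turn. Spike-in scaling reversed Rec114 (-0.98), Zg16 (-1.27) and Cavin2 (-1.25) in Mac1Gr1 against GMP. The second Rec114 probe reversed Rec114 for Ter119 against CFUe (-1.45), Mac1Gr1 against GMP (-0.15) and the difference between the last steps (-1.30), and left it uncalled for CFUe against GMP (1.62) and Ter119 against Mac1Gr1 (0.32). The cause was not tested. With the slide as a block the Rec114 difference between the last steps was 2.15 (limma adjusted p = 0.0844).

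Replicate numbers gave no general pairing of the arrays: the deviations of same-numbered arrays correlated at -0.43 to 0.37 (median 0.00) over 63 pairs, 21 of them above 0.1. In CFUe and PreGM, replicate 3 was the only array with low Xist. Whether some same-numbered arrays share an origin was not tested. With the replicate block, the calls were 3 for CFUe against GMP, 3 for Ter119 against Mac1Gr1, 4 for Ter119 against CFUe, 2 for Mac1Gr1 against GMP and 4 for the difference between the last steps, where Csrp3 (1.32, limma adjusted p = 0.0154) was added. Leaving out each array in turn gave 3 to 4 calls for CFUe against GMP, 3 for Ter119 against Mac1Gr1, 3 to 5 for Ter119 against CFUe and 3 to 4 for the difference between the last steps. Signal near background limits Fbxl13 and Cavin2 outside PreMegE.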
